A study of Arabidopsis thaliana with 27 samples.

Results

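Wild-type Arabidopsis thaliana (Col-0) shoots that had been without iron for 52 h were compared with shoots that had been without it for 39 h, which is the comparison of the 3 −Fe+P samples of 52 h with the 3 −Fe+P samples of 39 h, 6 of the 27 samples of the series. They are all the samples of this medium and these times. All plants of the series grew for 7 days on complete medium (+Fe+P) in continuous light on agar plates without sucrose and were then moved to −Fe+P, which lacks the added iron salt, to −Fe−P, which in addition is low in phosphate, or to fresh +Fe+P medium, and shoots were taken after 39, 52 and 76 h. None carried a mutation or a transgene, and each of the 9 groups held 3 biological replicates, for which the labels do not say how many plants were pooled. The +Fe+P and −Fe−P samples of 52 h and 39 h are used below only to show where the 13 h between the sampling times passed differently in −Fe+P. Within −Fe+P, longer time without iron, greater age of the plant and another phase of the circadian cycle cannot be told apart.

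Iron is needed for haem, for iron-sulfur clusters and for an enzyme of chlorophyll synthesis, so that a leaf without it pales and shifts its metal transport and its redox balance. A plant in constant light also keeps an internal clock, in which morning-expressed transcription factors such as CCA1 and LHY and evening-expressed proteins such as TOC1 and the ELF4, ELF3 and LUX complex repress each other in turn. The clock sets the hour at which many output genes are transcribed, light-harvesting antenna genes among them.

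Expression was given in TPM, in which a transcript's share of all transcripts is scaled to a fixed total in each sample. The 18910 genes that averaged 1 TPM or more over the series entered the test, limma on log2(TPM + 0.5). A gene was called higher or lower where its Benjamini-Hochberg adjusted p over all tested genes was under 0.05 and its log2 fold change was at least 1 in size, and errors of log2 fold changes are standard errors (SE). At 52 h, 464 genes were upregulated in −Fe+P shoots relative to 39 h, which is 2.45% of those tested, and 27 were downregulated, which is 0.143%. The 3 samples of 52 h and the 3 of 39 h did not overlap for 460 of the 464 and for all 27, and over all tested genes they lay apart upward for 21.1% and downward for 14.2%. A change of at least 4-fold was reached by 68 of the upregulated and by 0 of the downregulated genes, and the median log2 fold change over all tested genes was 0.02. In these bulk shoots a change in the share of a cell type and a change in RNA per cell cannot be told apart.

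The same 13 h brought 137 upregulated genes (0.724%) and 45 downregulated genes (0.238%) in +Fe+P. In −Fe−P they brought 569 (3.01%) and 35 (0.185%). Of the 464 genes upregulated in −Fe+P, 343 were also upregulated in −Fe−P, which is 73.9% of the −Fe+P list and 60.3% of the −Fe−P list. With +Fe+P 93 were shared, which is 20% of the −Fe+P list and 67.9% of the shorter +Fe+P list. Of the 27 downregulated genes, 15 were also downregulated in +Fe+P (55.6% of the −Fe+P list and 33.3% of the +Fe+P list) and 8 in −Fe−P. A gene called in one medium and not in another is not thereby shown to differ between them, and the difference itself passed the adjusted p against +Fe+P for 18 of the 464 and for 0 of the 27.

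The 39 h samples of −Fe+P were not alike. Replicate 1 stood at least 2-fold above both other replicates in 107 genes, 81 of them among the 464, and replicate 2 at least 2-fold below both others in 84 genes, 53 of them among the 464. Without replicate 1, 575 genes were upregulated, with 441 of the 464 among them, and without replicate 2 only 295 were, with 285 of the 464 among them. The downregulated genes numbered 32 and 25 in these fits. In each of the other media 1 library of 39 h also stood high in many of the 464. Replicate 2 of +Fe+P 39 h was at least 2-fold above both other replicates in 73 genes, 40 of them among the 464. Replicate 1 of −Fe−P 39 h was so in 230 genes, 121 of them among the 464. Among cell type markers, the summed TPM of leaf markers was 60037 to 62147 at 52 h and 58769 to 62268 at 39 h, so that the defining markers of leaf were abundant in all 6 samples. Xylem markers summed to 80.2, 77.8 and 98.6 TPM at 52 h, against 57.9, 47.0 and 55.8 TPM at 39 h, root markers to 2.64 to 3.06 TPM, against 0.494 to 1.75 TPM, and seed markers to 4.25, 4.04 and 7.15 TPM, against 1.59, 1.54 and 2.37 TPM. These 3 sums were higher in every 52 h sample, and 2 of the 9 seed markers were at 0 in all 6 samples. The 1 marker called was the seed storage albumin SESA2. It made up most of the seed sum, with 3.84, 3.77 and 6.69 TPM at 52 h, against 1.45, 1.34 and 2.08 TPM at 39 h. The part of these markers in the other results was not tested.

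Of 26 circadian clock genes, all tested, 10 were upregulated at 52 h (38.5%, against 2.45% over all genes) and 3 downregulated (against 0.143% over all genes). Those called higher and lower differed in their time of day. Among 14 genes with a morning role, 10 were upregulated and 0 downregulated, with a median log2 fold change of 1.72, whereas among 9 with an evening role 3 were downregulated and 0 upregulated, with a median of -0.70. CCA1, a morning transcription factor that represses evening genes, had 48.4, 41.1 and 43.6 TPM at 52 h, against 8.79, 6.72 and 7.12 TPM at 39 h. Its partner LHY had 78.8, 72.5 and 89.1 TPM at 52 h, against 17.5, 11.7 and 12.7 TPM at 39 h. Both were several times higher in every 52 h sample, with log2 fold changes of 2.48 (SE 0.34, adjusted p = 5.3e-05) for CCA1 and 2.49 (SE 0.30, adjusted p = 1.9e-05) for LHY.

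The largest clock changes were in the LNK coactivators, which are recruited by the CCA1-related RVE proteins. LNK3 had 13.9, 11.8 and 12.3 TPM at 52 h, against 1.72, 0.990 and 1.53 TPM at 39 h, and LNK4 had 16.2, 14.9 and 12.4 TPM, against 2.54, 0.961 and 1.65 TPM. No 39 h sample of either gene came near a 52 h sample, and the log2 fold changes were 2.80 (SE 0.40) and 2.81 (SE 0.43), with adjusted p of 9.2e-05 and 1.7e-04. RVE1, which links the clock to auxin, rose by 2.55, LNK2 by 2.47, LNK1 by 1.88 and RVE8, an activator of evening genes, by 1.57 on the log2 scale. The pseudo-response regulators PRR9 and PRR7, which repress CCA1 and LHY later in the day, had smaller log2 fold changes. PRR9 had 1.74, 1.38 and 2.06 TPM at 52 h, against 0.424, 0.300 and 0.351 TPM at 39 h (log2 fold change 1.37, SE 0.21), and PRR7 rose by 1.08 on that scale (SE 0.21).

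The called evening genes fell. ELF4, of the evening complex, had 42.2, 30.9 and 27.4 TPM at 52 h, against 75.2, 75.9 and 86.7 TPM at 39 h. The groups did not overlap, and the log2 fold change was -1.25 (SE 0.18, adjusted p = 1.1e-04). FKF1, a blue light receptor that marks repressors of flowering for breakdown, fell by 1.36 (SE 0.27, adjusted p = 0.00141), with 10.2, 5.88 and 5.20 TPM at 52 h, against 20.5, 15.5 and 19.2 TPM at 39 h, and PRR3, which stabilises TOC1, fell by 1.17 (SE 0.19, adjusted p = 3.0e-04). TOC1, LUX and BOA passed the adjusted p with log2 fold changes of -0.55, -0.70 and -0.80, under the 2-fold minimum. GI, PRR5 and ELF3 did not pass, with log2 fold changes of -0.36, -0.24 and -0.13, nor did ZTL, LKP2 and CHE, with 0.15 to 0.17.

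**Figure D1:**
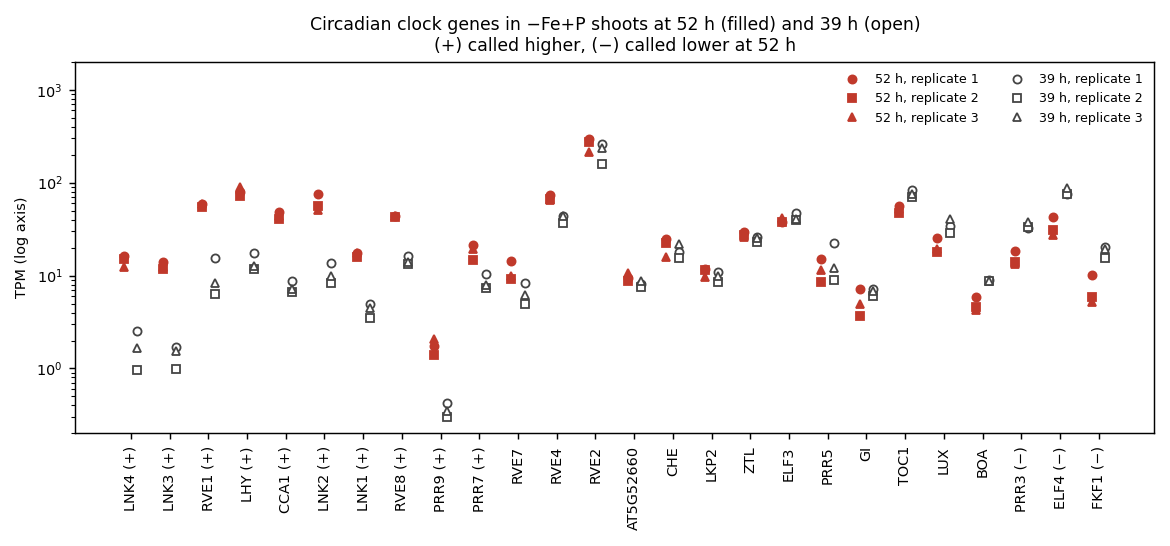
TPM of the 26 clock genes on a log axis in −Fe+P shoots, with a filled point for each of the 3 samples of 52 h and an open point for each of the 3 of 39 h. CCA1, LHY, RVE1 and LNK1 to LNK4 have all 52 h points above all 39 h points, and ELF4, FKF1 and PRR3 have all 52 h points below.

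Clock genes were called in the same directions over these 13 h in plants with iron. In +Fe+P, 10 morning genes were upregulated and 3 evening genes downregulated, with medians of 1.92 and -0.89, and in −Fe−P 8 and 0 were, with medians of 1.46 and -0.24. CCA1 changed by 2.41 in +Fe+P and 2.16 in −Fe−P on the log2 scale. For none of the 26 clock genes was the change in −Fe+P called different from that in +Fe+P or in −Fe−P, and the −Fe+P samples stand in both of these comparisons. The gap in log2 fold change between −Fe+P and +Fe+P was widest for GI, at -0.87 (adjusted p = 0.237), and PRR7, at -0.82 (adjusted p = 0.165). At 76 h, 24 h after the 52 h samples, the 10 upregulated clock genes had changed from 52 h by a median of -0.56 in −Fe+P, against 0.17 in +Fe+P and -0.07 in −Fe−P, a description without a test.

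**Figure D2:**
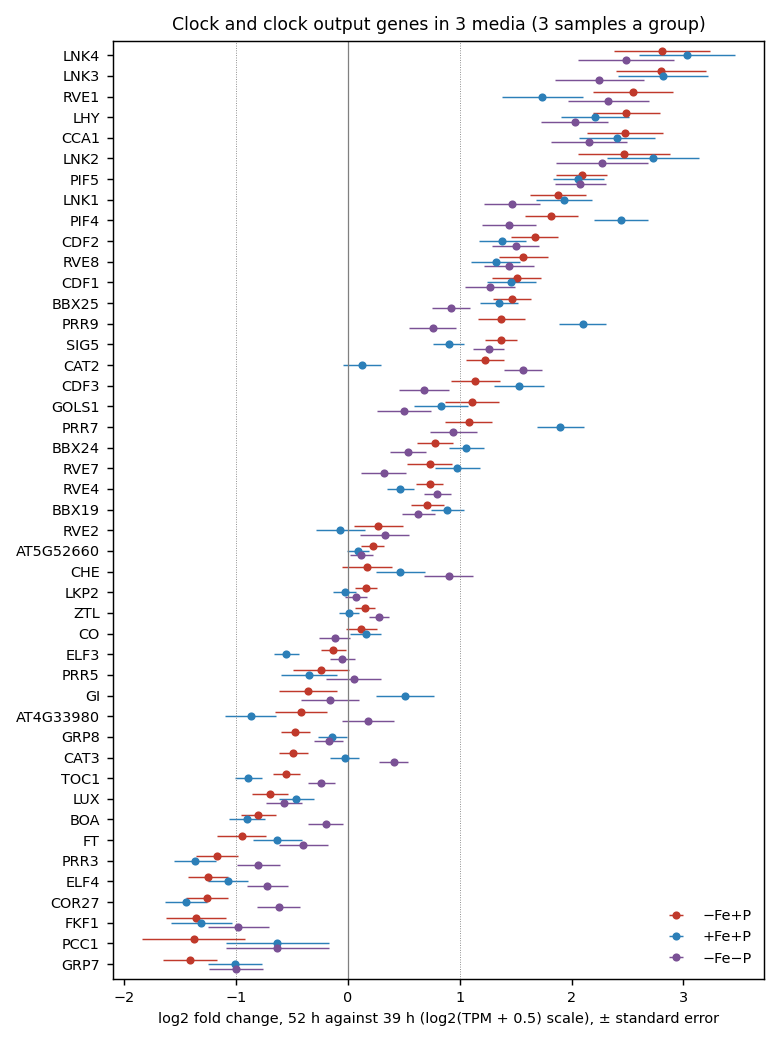
Log2 fold change of 52 h against 39 h for each clock and clock output gene in −Fe+P, +Fe+P and −Fe−P, with the SE as error bars and dotted lines at the 2-fold minimum. LNK4 lies highest at 2.81 and GRP7 lowest at -1.41 in −Fe+P, and CCA1 lies at 2.48 in −Fe+P, against 2.41 in +Fe+P and 2.16 in −Fe−P.

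Among 19 tested clock output genes, 9 were upregulated (47.4%, against 2.45% over all genes) and 3 downregulated (against 0.143% over all genes). In +Fe+P 7 were upregulated and 2 downregulated, and in −Fe−P 6 and 1. For 1 output gene the change in −Fe+P was called higher than in +Fe+P, and for 0 lower. Against −Fe−P 0 were called different. In −Fe+P the growth regulators PIF5 and PIF4 rose by 2.09 and 1.82 on the log2 scale. The flowering repressors CDF2, CDF1 and CDF3 rose by 1.67, 1.51 and 1.14. SIG5, which directs plastid transcription in step with the clock, rose by 1.37. GRP7, an RNA-binding protein that feeds back on its own transcript, had 1021, 624 and 520.3 TPM at 52 h, against 1811, 1848 and 1859 TPM at 39 h. All 3 samples of 52 h lay below all of 39 h, with a log2 fold change of -1.41 (SE 0.24, adjusted p = 4.7e-04). COR27, a repressor of clock genes, fell by 1.26. PCC1, named for its control by pathogens and the clock, had 11.6, 43.0 and 43.8 TPM at 52 h, against 43.8, 129 and 70.9 TPM at 39 h, groups that met at 43.8 TPM, and its call (log2 fold change -1.38, adjusted p = 0.0446) was lost without 39 h replicate 2 (0.225) or 3 (0.0944) and without 52 h replicate 1 (0.24).

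The promoters of the called genes were searched on both strands for 3 motifs, which the choice of samples did not use. The evening element, AAATATCT (AGATATTT on the other strand), is the site through which CCA1 and its relatives act on evening genes. It stood within the 300 bases before the RefSeq gene start (TAIR10.1) in 10 of the 27 downregulated genes (37%), in 6 of the 9 clock genes with an evening role (66.7%), in 29 of 463 upregulated genes with a promoter (6.26%) and in 1080 of the 18681 promoters of tested genes (5.78%). The related CCA1 binding site AAAAATCT stood in 0 of the 27, in 8.64% of the upregulated genes and in 7.92% of all promoters. A match is a description of the sequence and not a bound site. The windows below hold every evening element of GRP7, FKF1, ELF4, NYC1 and MT2A, in capitals, to show how often the motif recurs in some of them.
GRP7, chr2:9266568-9266645, minus strand: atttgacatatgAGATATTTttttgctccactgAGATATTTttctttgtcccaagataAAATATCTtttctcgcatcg
FKF1, chr1:25508348-25508472, plus strand: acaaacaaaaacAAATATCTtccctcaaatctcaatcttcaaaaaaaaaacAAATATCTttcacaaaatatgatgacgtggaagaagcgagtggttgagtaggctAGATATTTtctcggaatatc
ELF4, chr2:16735174-16735215, minus strand: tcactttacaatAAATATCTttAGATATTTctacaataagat
NYC1, chr4:7687007-7687029, minus strand: aaagagagaaaaAAATATCTtga
MT2A, chr3:2890611-2890652, minus strand: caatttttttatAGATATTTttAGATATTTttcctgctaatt
GRP7 and FKF1 hold 3 each, ELF4 and the metallothionein gene MT2A 2 each, and NYC1, for a chlorophyll b reductase, 1. Among the others of the 10 were AT4G30650 and AT4G30660, neighbouring genes of a low temperature and salt responsive family, AT4G16146 and AT5G26220, with 1 each. These 10 fell by 1.05 to 1.41 on the log2 scale.

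The G-box CACGTG, which reads the same on both strands and is a site for bZIP and PIF transcription factors, stood in 59 of 463 upregulated genes (12.7%), in 4 of the 27 downregulated genes (14.8%) and in 7.95% of all promoters. Of the clock genes, 7 of the 14 with a morning role (50%) and 2 of the 9 with an evening role (22.2%) held it. Among the 10 upregulated clock genes 6 held it (60%) and 0 held the evening element. The windows of these 6 are given with the G-box in capitals.
CCA1, chr2:19245386-19245415, plus strand: tagtgtatcagaCACGTGtcgacaaactgg
LHY, chr1:37934-37963, minus strand: ctacaatatcacCACGTGtcgatctgcgat
RVE1, chr5:5693086-5693115, minus strand: gagaaagagcgaCACGTGgcaaagatggac
LNK3, chr3:3923332-3923391, plus strand: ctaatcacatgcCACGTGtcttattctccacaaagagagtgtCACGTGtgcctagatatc
PRR9, chr2:19232351-19232452, plus strand: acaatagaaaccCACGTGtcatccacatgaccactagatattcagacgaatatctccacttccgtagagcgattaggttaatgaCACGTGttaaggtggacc
PRR7, chr5:642214-642243, minus strand: tacccaccattaCACGTGtcagttcaaaaa
LNK3 and PRR9 hold 2 each and the others 1. The 6 genes had log2 fold changes from 1.08 for PRR7 to 2.80 for LNK3.

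The 15 leading genes rose by 6.88-fold to 12.7-fold and, beside antenna and LNK genes, included CYP707A3, which breaks down abscisic acid, HSPRO2, an ortholog of a nematode resistance gene, the transcription factors WRKY40, DREB26, CBF2 and ZAT7, the touch-inducible cell wall enzyme TCH4 and the mitochondrial carrier DIC2. CYP707A3 had 54.5, 72.1 and 64.6 TPM at 52 h, against 18.3, 1.12 and 3.64 TPM at 39 h. WRKY40 had 44.1, 46.4 and 51.0 TPM at 52 h, against 17.4, 1.31 and 3.57 TPM at 39 h. The 52 h samples lay close together and the 39 h samples far apart, replicate 1 being the highest and replicate 2 the lowest of the 3. The log2 fold changes were 3.67 (SE 0.77, adjusted p = 0.00229) for CYP707A3 and 3.23 (SE 0.64, adjusted p = 0.00146) for WRKY40.

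HSPRO2 had 215, 189 and 275 TPM at 52 h, against 98.6, 5.79 and 19.1 TPM at 39 h, and TCH4 had 173, 201 and 229 TPM, against 75.0, 10.1 and 26.9 TPM. Both groups of samples stayed apart, with log2 fold changes of 3.28 and 2.84 (adjusted p = 0.00542 and 0.00583). Without 39 h replicate 2 the adjusted p was 0.0556 and 0.0568, and that of DIC2 was 0.0558. ZAT12, a zinc finger regulator of the reactive oxygen response, had 22.3, 22.3 and 37.0 TPM at 52 h, against 16.0, 1.55 and 6.50 TPM at 39 h, and its adjusted p of 0.0335 became 0.222 in that fit. Its call was also lost without 39 h replicate 3 (0.0683) and without 52 h replicate 2 (0.058) or 3 (0.123). Over the 464 genes, replicate 1 was the highest of the 39 h samples in 370 and replicate 2 the lowest in 359.

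**Figure D3:**
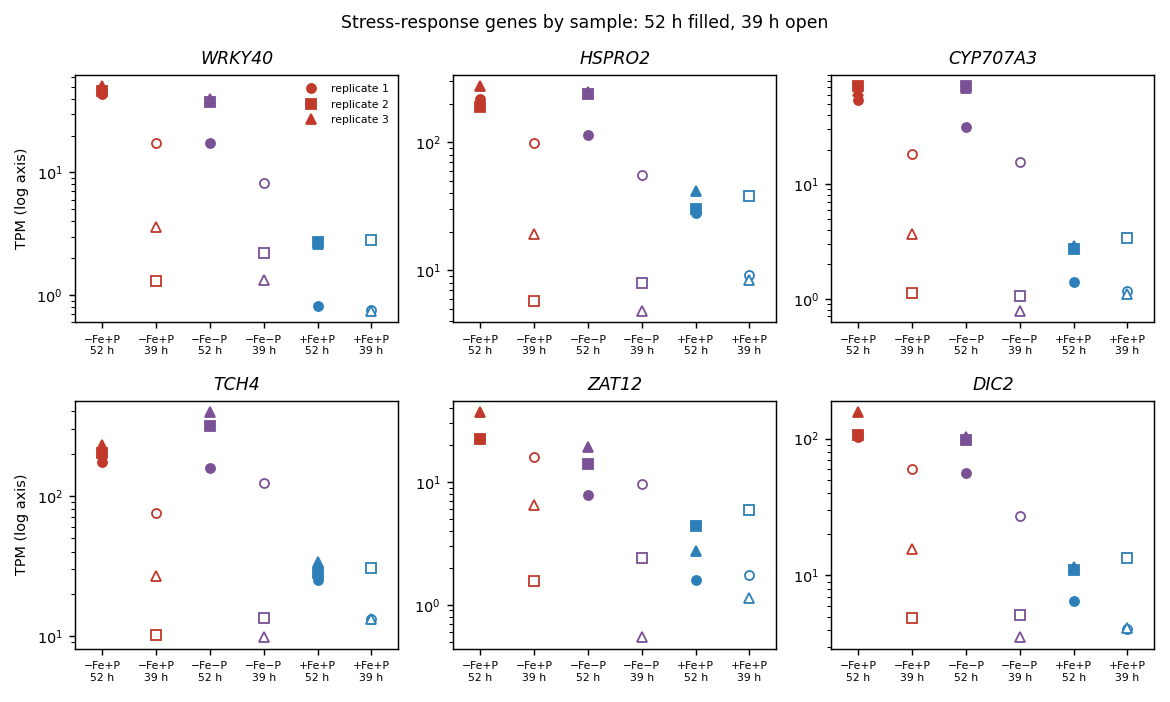
TPM on a log axis of WRKY40, HSPRO2, CYP707A3, TCH4, ZAT12 and DIC2 at 52 h (filled) and 39 h (open) in −Fe+P, −Fe−P and +Fe+P, with 1 point for each of the 3 samples of a group and its shape for the replicate. In −Fe+P the 39 h points are spread, with replicate 1 highest, as in WRKY40 at 17.4 TPM, and replicate 2 lowest, at 1.31 TPM.

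Counted by the gene families of the RefSeq descriptions, which were chosen after the values were seen and so carry no test, 15 of 64 tested AP2/ERF transcription factors (23.4%) and 10 of 44 WRKY factors (22.7%) were upregulated, against the 2.45% over all genes. In +Fe+P 0 and 0 were, and in −Fe−P 16 and 10. Without 39 h replicate 2 the counts in −Fe+P were 9 and 8, and without replicate 1 they were 20 and 11. Of 51 NAC factors 6 were upregulated (11.8%), of 49 calmodulin-like and EF-hand proteins 6 (12.2%) and of 17 xyloglucan endotransglucosylases 4. No member of the ribosomal proteins (316) or the aquaporins (24) was called in either direction.

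Of 13 tested genes of the oxidative and mitochondrial stress list, 7 were upregulated (53.8%, against 2.45% over all genes) and 0 downregulated. The median log2 fold change was 1.16, against 0.02 over all genes. In +Fe+P 0 were called, with a median of 0.02, and in −Fe−P 4, with a median of 0.48. AT5G51440, for a small heat shock protein of the HSP20 type, had 21.9, 19.1 and 22.9 TPM at 52 h, against 9.35, 8.16 and 10.3 TPM at 39 h. AT2G21640, annotated as a marker of the oxidative stress response, had 61.7, 58.5 and 53.6 TPM at 52 h, against 23.6, 22.3 and 24.8 TPM at 39 h. In both genes the 39 h replicates lay close together, and the log2 fold changes were 1.16 (SE 0.18, adjusted p = 1.6e-04) and 1.28 (SE 0.18, adjusted p = 7.0e-05). OM66, for an outer mitochondrial membrane protein, rose by 1.63 and UGT74E2, a glucosyltransferase for an auxin, by 1.19 on the log2 scale. AOX1A, the alternative oxidase of the respiratory chain, and its regulator ANAC013 passed the adjusted p at 0.87 and 0.88, under the 2-fold minimum. Without 39 h replicate 1, 9 members were upregulated, and without replicate 2, 5.

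Of 20 tested light-harvesting antenna genes, 7 were upregulated at 52 h (35%, against 2.45% over all genes) and 0 downregulated, with a median of 0.65. In +Fe+P 14 were upregulated, with a median of 1.86, and in −Fe−P 8 were, with a median of 0.83. LHCB2.2 had 498, 476 and 588 TPM at 52 h, against 82.6, 38.4 and 45.8 TPM at 39 h, and LHCB2.1 had 753, 696 and 799 TPM, against 117, 58.6 and 75.7 TPM. These near-identical genes of the mobile antenna of photosystem II, whose reads may be split between them, did not overlap between the times, with log2 fold changes of 3.29 (SE 0.45) and 3.21 (SE 0.43). LHCB2.3 rose by 2.81, LHCB3 by 1.81, LHCB4.2 by 1.57 and LHCA4 of photosystem I by 1.55 on the log2 scale. LHCB1.1, which again has near-identical copies, was the other called member, with 1596, 1268 and 1020.5 TPM at 52 h, against 605, 509 and 451 TPM at 39 h. The most abundant antenna gene, LHCB1.3, had 5884, 4418 and 3773 TPM at 52 h, against 4811, 4711 and 4434 TPM at 39 h, overlapping groups with a log2 fold change of -0.01.

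LHCB1.4 and LHCA1 were the 2 antenna genes whose change was called lower in −Fe+P than in +Fe+P. LHCB1.4 had 746, 459 and 391 TPM at 52 h, against 292, 286 and 313 TPM at 39 h, in −Fe+P, a log2 fold change of 0.78. In +Fe+P it averaged 1683 ± 206 TPM at 52 h and 251 ± 42.7 TPM at 39 h (SD, n = 3 each), a log2 fold change of 2.75. The difference of the changes was -1.96 (adjusted p = 0.0292). LHCA1 had a log2 fold change of 0.54 in −Fe+P, against 1.86 in +Fe+P, a difference of -1.33 (adjusted p = 0.0304). The differences of LHCB1.4 and LHCA1 were lost in 9 alternatives each, with adjusted p up to 0.116 and 0.129. The changes in LHCB2.1 and LHCB2.2 differed from those in +Fe+P by 0.18 and 0.09, with adjusted p of 0.911 and 0.961.

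**Figure D4:**
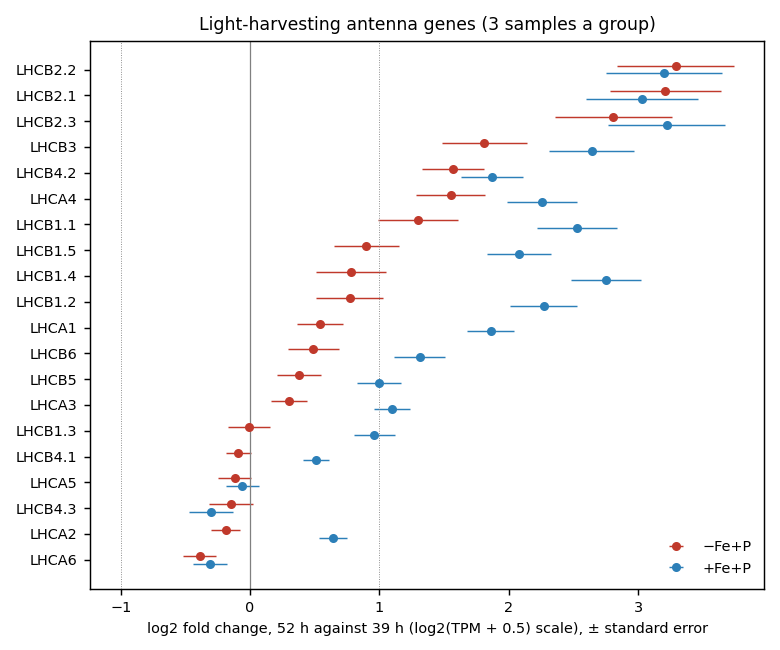
Log2 fold change of 52 h against 39 h for the 20 light-harvesting antenna genes in −Fe+P and +Fe+P, with the SE as error bars and dotted lines at the 2-fold minimum. LHCB2.1 lies at 3.21 in −Fe+P, against 3.03 in +Fe+P, while LHCB1.4 lies at 0.78 in −Fe+P, against 2.75 in +Fe+P.

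Of 19 tested genes of chlorophyll and tetrapyrrole synthesis 4 were upregulated (21.1%, against 2.45% over all genes) and 0 downregulated, with a median of 0.10. CHLH, a subunit of the chelatase that inserts magnesium, had 394, 342 and 346 TPM at 52 h, against 168, 109.7 and 111 TPM at 39 h (a 2.82-fold increase, adjusted p = 2.7e-05), and CAO, which makes chlorophyll b, had 77.0, 77.3 and 78.2 TPM, against 32.5, 24.9 and 29.9 TPM (log2 fold change 1.41, adjusted p = 1.0e-05). Neither gene had overlapping groups. GUN4, which stimulates the chelatase, rose by 1.07, and CRD1, the iron-containing cyclase of the pathway, by 1.03 on the log2 scale. In +Fe+P, CHLH, CAO, GUN4 and CRD1 changed by 0.92, 1.51, 0.81 and 0.97, of which only CAO was called. The differences between −Fe+P and +Fe+P did not pass for these genes (adjusted p = 0.278, 0.861, 0.543 and 0.897). Of 12 genes of chlorophyll breakdown and senescence, WRKY53 and the NAC factor ORE1 were upregulated in −Fe+P (16.7%, against 2.45% over all genes). NYC1, for the reductase that begins chlorophyll b breakdown, was downregulated, with 10.7 to 16.1 TPM at 52 h, against 26.3 to 35.1 TPM at 39 h. WRKY53 had 8.32, 10.8 and 12.5 TPM at 52 h, against 3.54, 1.96 and 2.32 TPM at 39 h.

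Of 27 tested genes of the iron deficiency response, 1 was upregulated (3.7%, near the 2.45% over all genes) and 0 downregulated, and 2 passed the adjusted p upward (7.41%, against 10.9% over all genes), with a median log2 fold change of 0.16. FRO2, the ferric chelate reductase known from the root surface, had 12.6, 12.9 and 12.1 TPM at 52 h, against 4.46, 3.99 and 5.74 TPM at 39 h. The groups did not overlap (log2 fold change 1.33, SE 0.38, adjusted p = 0.0193), but the call was lost without 39 h replicate 2 (adjusted p = 0.0798) and without 52 h replicate 2 (0.0511) or 3 (0.0507). The transcription factor BHLH100, which promotes iron uptake genes, had 931, 1015 and 1242 TPM at 52 h, against 743, 739 and 936 TPM at 39 h, groups that overlapped slightly (0.40, adjusted p = 0.58). Its relatives BHLH101, BHLH38 and BHLH39 had log2 fold changes of 0.57, 0.16 and -0.03 and did not pass, and the reads of the near-identical BHLH38 and BHLH39 may be split between them.

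In +Fe+P these 4 factors were downregulated at 52 h at far lower levels. BHLH39 had 3.68, 4.79 and 8.82 TPM at 52 h, against 16.3, 7.15 and 45.4 TPM at 39 h, in +Fe+P, and replicate 3 of 39 h was several times above the others for all 4. In +Fe+P the log2 fold change was -1.41 for BHLH38, -1.61 for BHLH39, -1.64 for BHLH100 and -1.27 for BHLH101. The change in −Fe+P minus that in +Fe+P came to 1.57, 1.59, 2.03 and 1.84, and none passed, with adjusted p of 0.192, 0.188, 0.117 and 0.0554. Without that +Fe+P replicate the 4 log2 fold changes in this medium were -0.63, -0.94, -0.82 and -0.70, and none was called. BHLH101 still passed the adjusted p there (0.0218), under the 2-fold minimum.

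Among 18 tested genes of iron storage and iron-using proteins, FRO6, a leaf ferric reductase, was upregulated, with 80.8, 68.7 and 67.4 TPM at 52 h, against 36.5, 29.6 and 29.9 TPM at 39 h (log2 fold change 1.16, SE 0.18). NEET, for an iron-sulfur cluster protein, was downregulated, with 0.827, 0.917 and 0.643 TPM at 52 h, against 4.14, 2.42 and 1.59 TPM at 39 h (-1.24, SE 0.24, adjusted p = 0.0011). No NEET sample overlapped, and without 39 h replicate 1 its log2 fold change was -0.94. In all, 2 of the 18 passed the adjusted p upward (11.1%, against 10.9% over all genes) and 7 downward (38.9%, against 6.01%), with a median of -0.38. The iron superoxide dismutase FSD1 passed at -0.62, with 122, 96.8 and 93.4 TPM at 52 h, against 201, 155 and 129.7 TPM at 39 h, and the ferritin gene FER1, at 3.11 to 3.60 TPM at 52 h and 4.31 to 5.17 TPM at 39 h, did not pass.

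Other metabolic and hormone lists had 1 to 3 upregulated members each, beside the 2.45% over all genes. In starch turnover (2 of 23, 8.7%) BAM9, a beta-amylase without catalytic activity, rose by 1.77 and the starch synthase GBSS1 by 1.04 on the log2 scale. The median of that list was -0.28, however. Of its members 6 passed the adjusted p downward (26.1%, against 6.01% over all genes) and 4 upward (17.4%, against 10.9%). In nitrogen assimilation (2 of 10, 20%) the nitrate reductase genes NIA1 and NIA2 rose by 1.44 and 1.21. NIA2 had 751, 790.1 and 730.0 TPM at 52 h, against 385, 249.7 and 361 TPM at 39 h, without overlap. In sugar starvation (2 of 5, 40%) EXO rose by 2.14 and DIN10 by 1.13. In the jasmonate response (1 of 12, 8.33%) the repressor JAZ1 rose by 1.81. The regulator MYB51 rose by 1.58 in sulfur and glucosinolate metabolism (1 of 21, 4.76%). In this last list 9 members passed the adjusted p upward (42.9%, against 10.9% over all genes) and 0 downward. The call of DIN10 was lost without 52 h replicate 1 (adjusted p = 0.07) and without 39 h replicate 2 (0.0807) or 3 (0.0944).

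In the cold, drought and abscisic acid list (3 of 16 upregulated, 18.8%) CBF2, the dehydrin RAB18 and NCED3, a step of abscisic acid synthesis, rose by 3.04, 1.17 and 1.07, whereas COR15B, a chloroplast protein of cold acclimation, fell by 1.53, with 8.91 to 12.2 TPM at 52 h, against 27.9 to 32.8 TPM at 39 h. In flavonoid and anthocyanin synthesis (1 of 17 upregulated, 5.88%) the repressor MYBL2 had 32.1, 26.6 and 36.5 TPM at 52 h, against 26.3, 7.48 and 12.2 TPM at 39 h (adjusted p = 0.0124), and PAP2 (AT1G66390, MYB90), an activator, had 3.10, 4.66 and 4.87 TPM, against 14.7, 14.8 and 5.94 TPM (adjusted p = 0.00492). MYBL2 was called higher and PAP2 lower. The call of RAB18 was lost without any 1 of the 39 h replicates and without 52 h replicate 2 or 3 (adjusted p = 0.0528 to 0.154), and that of MYBL2 without 39 h replicate 2 (0.11) or 52 h replicate 3 (0.0564). None of the genes of cell division (21), the cytosolic ribosome and nucleolus (22), growth and auxin response (9), hypoxia (9) or phosphate starvation (17) was called. Under the 2-fold minimum, however, 5 hypoxia genes passed the adjusted p upward (55.6%, against 10.9% over all genes). Of the cell division genes 6 passed it downward (28.6%, against 6.01% over all genes), and of the phosphate starvation genes 3 did (17.6%). None of the 75 tested mitochondrion-encoded genes was called, and of 133 plastid-encoded genes 1 was, ATCG00060 (1.21), in a library of polyadenylated RNA. Its call was lost without 52 h replicate 1 (adjusted p = 0.068) and without 39 h replicate 1 (0.0749) or 2 (0.0699).

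None of the 5 genes that the study followed passed in this comparison of 52 h with 39 h within −Fe+P. The study's statements on their expression compare growth conditions, which is another question. The bZIP transcription factor BZIP58 had 1.42, 1.52 and 1.45 TPM at 52 h, against 1.75, 2.33 and 2.14 TPM at 39 h, which did not overlap but gave a log2 fold change of only -0.38 (adjusted p = 0.252). PHT4;4, a plastid transporter of phosphate and ascorbate, changed by -0.11, and VTC1, VTC2 and VTC4 of ascorbate synthesis by -0.18, -0.10 and -0.17.

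Outside the lists, the deepest decreases were in AT3G33000 (-1.84), AT1G07050 of the CCT motif family (-1.68) and JMJD5 (-1.48), a jumonji-type demethylase tied to the clock. JMJD5 had 42.5, 32.3 and 27.2 TPM at 52 h, against 93.0, 90.1 and 100.4 TPM at 39 h, and AT1G07050 had 48.8, 33.5 and 35.7 TPM, against 135, 114 and 129 TPM. The groups lay far apart for both. These 2 genes also fell in +Fe+P, by 1.89 for JMJD5 and 1.39 for AT1G07050, while AT3G33000 had a log2 fold change of -0.06 there. The difference of -1.77 for AT3G33000 did not pass (adjusted p = 0.146), and in −Fe−P it was called lower too, at -1.36, where 39 h replicate 1 stood at 231 TPM and the other 39 h replicates at 41.5 and 40.7 TPM.

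Against +Fe+P, the change over the 13 h in −Fe+P was called higher for 23 genes (0.122%) and lower for 4 (0.0212%), and it was higher than in −Fe−P for 15 (0.0793%) and lower for 20 (0.106%). Both comparisons use the same −Fe+P samples. The median difference from +Fe+P over all genes was 0.12, and scaling by the median of ratios moved it to -0.01 and the counts to 9 and 7. These counts also depended on single libraries, since without 39 h replicate 1 of −Fe+P 150 genes were higher than in +Fe+P, and without 52 h replicate 2 only 3 were. In −Fe−P, 39 h replicate 1 stood apart most of all 27 samples, with 230 genes at least 2-fold above and 277 at least 2-fold below both other replicates and a seed marker sum of 62.5 TPM, against 1.06 and 0.883 TPM in these. Without it, 73 genes were higher and 34 lower than in −Fe−P.

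AT1G62420, of a protein family of unknown function (DUF506), had 58.9, 69.9 and 71.7 TPM at 52 h in −Fe+P, against 20.4, 22.1 and 31.4 TPM at 39 h. In +Fe+P it averaged 0.402 ± 0.0973 TPM at 52 h and 0.691 ± 0.359 TPM at 39 h (SD, n = 3 each). It rose in −Fe+P without overlap, and the difference of the changes was 1.80 (adjusted p = 0.0109), the 1 named difference from +Fe+P that passed in every alternative run, with adjusted p up to 0.0422. The lipoxygenase gene LOX4, which acts in jasmonate synthesis, had 9.90, 13.3 and 11.0 TPM at 52 h, against 3.18, 1.68 and 1.80 TPM at 39 h, in −Fe+P, and differed from +Fe+P by 2.33 (adjusted p = 0.0159). AT2G04050, for a MATE efflux protein, had 6.48, 7.09 and 5.31 TPM at 52 h, against 0.991, 0.670 and 1.68 TPM at 39 h, and differed by 2.05 (adjusted p = 0.0159). All 3 genes were higher in every 52 h sample of −Fe+P, while with iron the log2 fold changes were -0.36, -0.17 and 0.06. The disease resistance gene AT5G41750 and the senescence regulator WRKY53 differed from +Fe+P by 2.05 and 1.87 (adjusted p = 0.0377 and 0.0436), and these were lost in 14 and 13 alternatives. WRKY40, with a difference of 2.77 from +Fe+P (adjusted p = 0.128), did not pass. In −Fe−P, LOX4, AT5G41750 and WRKY53 also rose, by 2.44, 2.12 and 1.85 on the log2 scale. AT2G04050 and AT1G62420 changed there by 0.86 and 0.46, but their differences from −Fe−P did not pass (adjusted p = 0.0558 and 0.0511).

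AT5G51440 was the 1 named gene whose change was called higher than in both other media. It changed by 1.16 in −Fe+P, against -0.43 in +Fe+P and -0.59 in −Fe−P, differences of 1.59 (adjusted p = 0.0109) and 1.75 (adjusted p = 0.00464). At 52 h its mean was 1.82 ± 0.199 TPM in plants with iron and 1.66 ± 0.224 TPM in −Fe−P (SD, n = 3 each), under every −Fe+P sample. AT2G21640 differed from +Fe+P by 1.25 (adjusted p = 0.0377), which was lost in 13 alternatives. On the lower side, AT3G55240, of unknown function, rose by 1.25 in −Fe+P, against 3.37 in +Fe+P (difference -2.13, adjusted p = 0.0249). AT5G28450, of the chlorophyll a-b binding family, changed by -0.60 in −Fe+P, against 0.64 in +Fe+P (difference -1.24, adjusted p = 0.0264). The differences of AT3G55240 and AT5G28450 were lost in 9 and 8 alternatives.

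**Figure D5:**
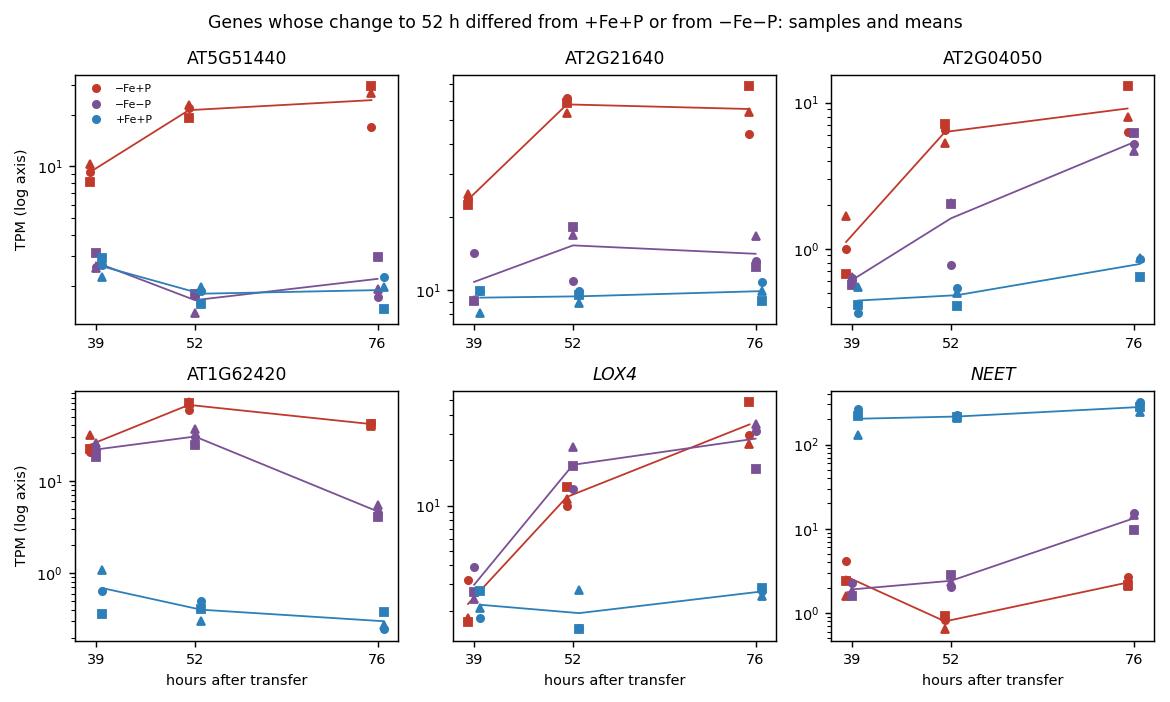
TPM on a log axis of AT5G51440, AT2G21640, AT2G04050, AT1G62420, LOX4 and NEET by hours since transfer (39, 52 and 76) in −Fe+P, −Fe−P and +Fe+P, with 1 point for each of the 3 samples of a group and lines through the means. AT5G51440 lies between 19.1 and 22.9 TPM at 52 h in −Fe+P, above the means of the other media (1.66 TPM in −Fe−P, 1.82 TPM with iron).

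Against −Fe−P, the genes with a lower change in −Fe+P were led by genes of phosphate starvation that are barely expressed while phosphate is supplied. PAP14, a purple acid phosphatase, stood at 0.0176 to 0.0357 TPM at 52 h and 0 to 0.0499 TPM at 39 h in −Fe+P, against a mean of 27.7 TPM at 52 h and 4.62 TPM at 39 h in −Fe−P. PAP24, the phosphodiesterase gene GDPD6 and the noncoding RNA IPS1 had the same pattern, with differences of -2.02, -1.79 and -1.68 that, like that of PAP14 (-2.41), depend on the added 0.5 TPM. NEET changed by -1.24 in −Fe+P, against 0.27 in −Fe−P (difference -1.52, adjusted p = 0.0225), and NYC1 by -1.17, against -0.04 (difference -1.13, adjusted p = 0.00854). The genes with a higher change than in −Fe−P included EMB3120 and AT5G14580, for a polyribonucleotide nucleotidyltransferase, which changed by 0.22 and 0.17 in −Fe+P and by -1.06 each in −Fe−P.

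At 76 h, 24 h after the 52 h samples, 73 of the 464 upregulated genes (15.7%) were at least 2-fold above their 52 h mean in −Fe+P, against 168 of all 18910 tested genes (0.888%), and 6 (1.29%) were at least 2-fold below it, against 36 (0.19%). The other 385 (83%) were within 2-fold, against 98.9% of all tested genes, and the median change of the 464 was 0.37. Of the 27 downregulated genes 24 were within 2-fold. The antenna list had a median change of -0.51 from 52 h to 76 h in −Fe+P, against -0.60 in −Fe−P and 0.02 with iron. The oxidative and mitochondrial stress list had a median change of 0.30 in −Fe+P, against 0.83 in −Fe−P and 0.10 with iron. These values describe the means and were not tested.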

How the data were processed

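Poly(A) RNA of shoots was sequenced, and the authors aligned reads to TAIR10 with HISAT2 and, for their own calls, used DESeq2. The deposited table gives TPM for 33602 genes in 27 samples, and how the TPM were computed and whether strand was used are not given in the sources used here, so reads of overlapping or antisense genes cannot be told apart. TPM are not counts, so DESeq2 was not run here, in departure from the study's own test. Steps in the values corresponded to depths of 44.6 to 47.4 M reads per sample at 52 h and 41.5 to 47.8 M at 39 h in −Fe+P, and 25.6 to 56.5 M over all samples. A level of 1 TPM was worth a median of 35 reads.

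Genes averaging 1 TPM or more over all samples were tested on log2(TPM + 0.5) with limma 3.58.1 (trend) in R 4.3.3, with 1 mean for each of 9 groups over all 27 samples. Fold changes on this scale understate those of low genes. Differences between media were contrasts of 2 time changes. Named genes were the 15 highest and 15 lowest called genes without overlap of samples and with at least 5 TPM in the higher group, all clock genes, up to 4 called members in each direction from each other list, the 5 highest and 5 lowest differences per pair of media, the 5 genes the study followed and a fixed set of iron genes. LHCB1.3, AOX1A, ANAC013 and further list members under the 2-fold minimum were named after their values were seen. The samples, lists and genes were chosen with earlier results of these data known. The replicates are given as biological, but not whether they came from separate experiments, so p-values measure the spread between these samples.

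Alternatives were other pseudocounts, filters, scalings, fits, a replicate block and leaving out each replicate. Leaving out replicate 1 of −Fe+P 39 h and of −Fe−P 39 h together was added after seeing the data. No 2 libraries were duplicates, and 32835 gene IDs matched RefSeq, from which names, descriptions and promoter sequences (TAIR10.1) were taken. The scripts were tested on simulated data. One promoter window is not reported here.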

Additional observations from a re-analysis of the deposited data

Results flagged for a closer look

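The following changes from 39 h to 52 h differed between media by the test of the difference itself, given as the log2 fold change in −Fe+P minus that in the other medium. Most of them were lost in some alternative, as described in the next part, and no explanation was tested.

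Against +Fe+P the change in −Fe+P was higher for LOX4 (2.33), AT5G41750 (2.05), AT2G04050 (2.05), WRKY53 (1.87), AT1G62420 (1.80), AT5G51440 (1.59) and AT2G21640 (1.25). It was lower for AT3G55240 (-2.13), LHCB1.4 (-1.96), LHCA1 (-1.33) and AT5G28450 (-1.24).

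Against −Fe−P it was higher for AT5G51440 (1.75), OSM34 (1.34, an osmotin), EMB3120 (1.27), SESA2 (1.26), AT5G14580 (1.23) and KTI1 (1.19, a trypsin inhibitor). It was lower for PAP14 (-2.41), PAP24 (-2.02), GDPD6 (-1.79), IPS1 (-1.68), NEET (-1.52), AT1G03935 (-1.45) and NYC1 (-1.13). SESA2, a seed storage protein, had 3.84, 3.77 and 6.69 TPM at 52 h, against 1.45, 1.34 and 2.08 TPM at 39 h, in −Fe+P. It is itself 1 of the seed markers and made up most of their sum in these samples, so that sum is not separate evidence. The 4 phosphate starvation genes PAP14, PAP24, GDPD6 and IPS1 were under 0.3 TPM in every −Fe+P sample of both times.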

How the results depend on the processing

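Of 112 named genes, 87 passed the adjusted p in −Fe+P, 69 of them in every alternative and 18 not in at least 1. Of 11 named differences from +Fe+P and 13 from −Fe−P, 1 each passed in every alternative, AT1G62420 against +Fe+P and AT5G51440 against −Fe−P (adjusted p up to 0.0422 and 0.027). No called direction was reversed. Without the 2-fold minimum, 2062 genes were higher and 1136 lower in −Fe+P (135 list members instead of 63), 568 and 1593 with iron, and 2956 and 3724 under −Fe−P, and the change was higher and lower than in +Fe+P for 36 and 10 genes and than in −Fe−P for 360 and 59. Genes lower in −Fe−P numbered 20 with a pseudocount of 1 and 56 with both 39 h libraries left out. Changes higher than in +Fe+P numbered 11 without the filter, 9 with the median of ratios, 56 with nuclear genes only, 75 with the samples of the contrast only and 276 with both libraries left out. Those lower numbered 0 without the filter, 7 with the median of ratios, 7 with the samples of the contrast only and 13 with both libraries left out. Against −Fe−P, 1 was higher with the samples of the contrast only and 61 with both libraries left out, and 0 were lower with the samples of the contrast only. The causes were not tested.

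Leaving out 1 replicate at a time gave 295 to 575 higher and 25 to 40 lower genes in −Fe+P and 51 to 69 called list members, 90 to 186 and 35 to 52 genes with iron (+Fe+P), and 453 to 769 and 10 to 87 under −Fe−P. It gave 3 to 150 and 0 to 6 differences from +Fe+P, and 3 to 73 and 7 to 58 from −Fe−P. The lowest and highest counts of higher genes and of list members in −Fe+P came without 39 h replicates 2 and 1. For lower genes they came without 39 h replicate 2 and 52 h replicate 1. With the replicate number as a block, 452 genes were higher and 29 lower in −Fe+P. Same-numbered samples of 52 h and 39 h did not deviate together (r = -0.04, 0.09 and -0.15, with unlike numbers at -0.18 to 0.14). With 3 samples a group this does not settle whether the numbers pair them. Between −Fe+P and +Fe+P, same-numbered samples deviated together at 52 h (r = 0.13, 0.27 and 0.28) and not at 39 h (r = -0.17, -0.42 and 0.04). The block ended the calls of the differences from +Fe+P of AT5G41750, WRKY53 and AT2G21640 (adjusted p = 0.0554, 0.0548 and 0.0548) and from −Fe−P of KTI1 (0.0528). Genes near 1 TPM rest on a median of 35 reads, and differences between media have a median SE of 0.15, against 0.11 for a single time change.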
